A study of Homo sapiens with 15 samples.

Results

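The Wnt pathway feedback targets and receptors described here are the 10 genes AXIN2, LEF1, TCF7, SP5, NKD1, NOTUM, LGR5, RNF43, ZNRF3 and FZD7. They were found by symbol, through the Ensembl identifiers of the deposited tables, and each had 1 row among the 48777 genes listed. The libraries were bulk RNA-seq of H1, an established human embryonic stem cell line, at days 0, 4, 9, 11 and 20 of differentiation toward cardiac cells, with 3 libraries per day that the labels call biological replicates. Days are given as labeled, but the methods of the study name day 7 in place of day 9 for the bulk harvests, and which of them holds is not settled by these sources. The labels place all cells on the laminins LN-521 and LN-221, but the deposited sample table lists LN-521 alone for day 0. Day 0 cells were grown in Nutristem, a medium for pluripotent cells, and later cells in RPMI medium with the supplement B27. The methods of the study start the RPMI medium at confluence on day 4, so whether the day 4 libraries had met it is not settled. The treatment protocol adds CHIR99021, an inhibitor of the kinase GSK3 that activates Wnt signaling, at confluence on day 4 and IWP2, which blocks Wnt secretion by inhibiting PORCN, from day 7 to day 9. The growth protocol in the same labels instead lists CHIR99021 on days 1 and 3 and IWP2 on day 5. By the treatment protocol, cells of day 7 would only be at the start of IWP2 and those of day 9 at its end. Whether the day 4 cells had already met CHIR99021 is therefore not settled by these sources, and no library lies between day 4 and day 9. As days, medium and both compounds change together in 1 cell line, their parts in a difference between days cannot be told apart.

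Between 11990302 and 33469703 reads were counted per library. The day 20 library labeled 2_3 stood apart. It had counts for 48230 genes, against 30886 to 39551 in the other 14 libraries, and an RNA integrity number of 6.1 against 8.8 to 10.0. On 175 protein-coding genes of at least 2 kb with at most 2 counts over all libraries of days 0 to 11, it held a median of 11 reads per kilobase, while the plate 6 library of day 20 held 0.679 and the median was 0 in the other 13. Values of day 20 are therefore given for each library, and fold changes that involve day 20 also without 2_3. Plate numbers follow the labels, with 2_3 read as plate 2 and the label 6_1 of a day 9 and a day 20 library as plate 6. The labels do not explain the second number. By this reading 2_3 shares its plate with another day 20 library. In the third day 0 library and the day 9 library of plate 2, a gene with a length of 57 bases behind its TPM held 20.0% and 17.0% of all TPM, which lowers the TPM of every other gene there (TPM scales counts by gene length to a fixed total). It held at most 0.370% of the counts, on which all tests were run.

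Wnt ligands bind Frizzled receptors with LRP co-receptors, which halts the destruction complex of AXIN, APC and GSK3 so that beta-catenin builds up and joins the TCF/LEF factors on their target genes. Several of these targets restrain the pathway itself. AXIN2 rebuilds the destruction complex, NKD1 binds Dishevelled, NOTUM strips the lipid that Wnt ligands need for receptor binding, and RNF43 and ZNRF3 are ubiquitin ligases that remove Frizzled from the cell surface. LGR5 and its relatives bind R-spondins, which clear RNF43 and ZNRF3 from the surface and so raise the response to Wnt. In cardiac differentiation of pluripotent stem cells, activation of the pathway drives cells into mesoderm, and its later inhibition favors cardiac fate.

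In GRCh38 with GENCODE v44, AXIN2 lies at chr17:65528563-65561648 on the minus strand, LEF1 at chr4:108047545-108168956 on the minus strand, TCF7 at chr5:134114681-134151865 on the plus strand and SP5 at chr2:170715337-170718078 on the plus strand. NKD1 lies at chr16:50548396-50649249 (plus), NOTUM at chr17:81952507-81961840 (minus), LGR5 at chr12:71439798-71586310 (plus), RNF43 at chr17:58353676-58417595 (minus) and ZNRF3 at chr22:28883572-29057488 (plus). FZD7, at chr2:202033855-202038441 on the plus strand, is annotated with 1 exon. Exons of LEF1, TCF7, NKD1, NOTUM, LGR5 and RNF43 overlap a gene on the opposite strand, and those of AXIN2 and RNF43 a gene on the same strand. Reads of partners on the opposite strand cannot be told apart here, since no source says whether strand was used in counting. Strand would not separate reads of partners on the same strand. The overlaps are those of GENCODE v44, whereas the study names another release for its alignment. TCF7 exons share 210 bases with SKP1, a gene with 1241 to 4089 counts per library against 137 to 447 for TCF7. RNF43 shares 4326 bases on its own strand with a gene whose counts were not analysed here, and AXIN2 shares 1316 with a gene of at most 5 counts per library. The length behind the TPM of NKD1 was 8915 bases, against 17359 in GENCODE v44. That of FZD7 was 3859 against 4587 and that of RNF43 7505 against 6329. With another release such lengths need not match. How the TPM of NKD1 stands against levels of the others thus depends on which length holds.

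SP5 and LEF1 rose together from day 4 to day 9, and their promoters are shown. Beside them stands the entry of TCF7, which did not pass, that held a match. The entries of RNF43, which also rose, are not shown. RefSeq promoters (GRCh38.p14, 250 bases before to 50 after a start site) were at hand for 4 of the 10 genes, SP5, LEF1, TCF7 and RNF43, in 6 entries. They were searched on both strands for the TCF/LEF core followed by 2 set bases, spelled CTTTGAA and, with the last base changed, CTTTGAT, as well as CTTTGTA and, likewise changed, CTTTGTT. Matches stand in capitals. The SP5 promoter, chr2:170715087-170715386 on the plus strand, lies at the annotated start of the gene. That of LEF1, chr4:108166252-108166551 on the minus strand, and the TCF7 entry shown, chr5:134123368-134123667 on the plus strand, lie inside the annotated gene.
SP5: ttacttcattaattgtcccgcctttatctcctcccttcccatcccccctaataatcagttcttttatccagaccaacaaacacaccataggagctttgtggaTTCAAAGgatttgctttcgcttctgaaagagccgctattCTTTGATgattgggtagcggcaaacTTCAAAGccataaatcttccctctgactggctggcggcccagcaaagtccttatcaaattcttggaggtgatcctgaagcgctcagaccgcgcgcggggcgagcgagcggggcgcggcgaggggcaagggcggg
LEF1: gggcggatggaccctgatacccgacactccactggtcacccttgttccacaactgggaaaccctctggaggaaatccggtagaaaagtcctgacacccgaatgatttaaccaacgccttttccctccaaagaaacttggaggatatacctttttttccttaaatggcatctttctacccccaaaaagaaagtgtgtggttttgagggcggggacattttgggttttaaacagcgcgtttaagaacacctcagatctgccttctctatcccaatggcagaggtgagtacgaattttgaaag
TCF7: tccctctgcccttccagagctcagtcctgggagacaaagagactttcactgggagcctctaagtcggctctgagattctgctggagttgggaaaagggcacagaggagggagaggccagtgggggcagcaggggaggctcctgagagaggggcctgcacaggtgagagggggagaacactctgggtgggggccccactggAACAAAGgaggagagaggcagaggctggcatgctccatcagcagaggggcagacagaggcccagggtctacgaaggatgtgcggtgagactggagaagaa

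SP5 held 3 matches, with first bases 148, 109 and 84 bases before the start (the match nearest the start and the farthest to CTTTGAA on the opposite strand, that between them to CTTTGAT on the strand of the gene), and no match overlapped another. The TCF7 entry held 1 match to CTTTGTT on the opposite strand, 50 bases before the start. LEF1, the other TCF7 entry (chr5:134115363-134115662) and both RNF43 entries (chr17:58417485-58417784 and chr17:58402672-58402971, minus strand) held 0, which says only that these letters are not in these windows. Of 35116 promoters of the same length, 13.8% held at least 1 match, 1.58% at least 2 and 0.179% at least 3. A match is a string of letters and was not tested as a binding site.

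Over the 5 days, 8 of the 10 genes differed in a fit of all 15 libraries (edgeR, test of any difference among the days), where 50.4% of all 24767 genes tested did. The lowest adjusted p-values were those of LEF1 (4.93e-07), SP5 (4.36e-06) and LGR5 (4.98e-06), followed by AXIN2 (6.92e-05), RNF43 (0.000553), FZD7 (0.00317), NOTUM (0.00805) and NKD1 (0.0474). TCF7 (0.0886) and ZNRF3 (0.194) did not pass. The NKD1 call was kept under 8 of 21 alternative settings, and DESeq2 called TCF7 as well (adjusted p = 0.0245), where it called 56.9% of all genes. Without 2_3 the same 8 genes passed. The courses were of several kinds. LEF1, SP5 and LGR5 were near 0 on days 0 and 4 and stood highest on day 9, RNF43 and NOTUM stood higher from day 9 on, and AXIN2 and FZD7 were highest on days 0 and 4.

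**Figure D1:**
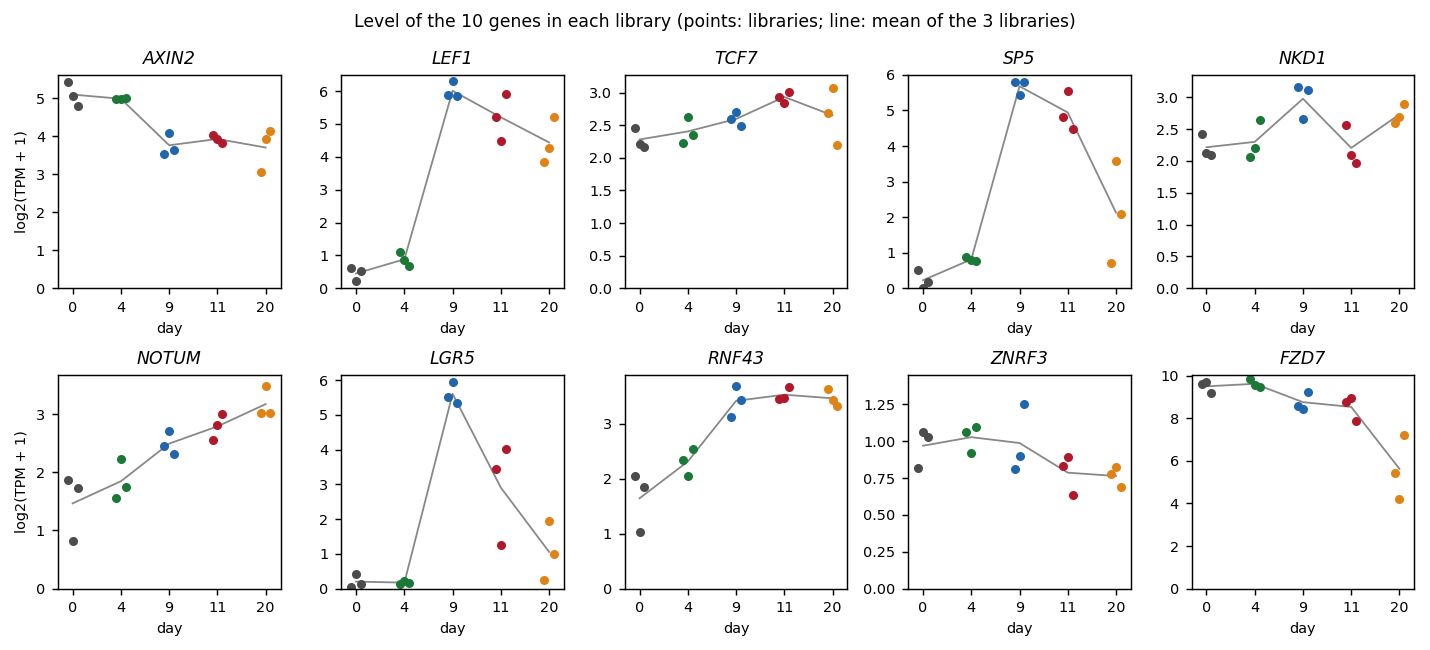
Level of each of the 10 genes as log2(TPM + 1) on the vertical axis against day, with 1 point per library and a line through the mean of the 3 libraries of a day. LEF1, SP5 and LGR5 climb from at most 1.15 TPM on day 4 to 39.6 TPM or more on day 9, while AXIN2 and FZD7 start high and TCF7 and ZNRF3 stay within narrow bands; each panel has its own vertical scale.

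LEF1 and TCF7 are DNA-binding partners of beta-catenin, and LEF1 is also its target. LEF1 stood at 0.538, 0.157 and 0.433 TPM in the day 0 libraries and at 1.15, 0.814 and 0.605 TPM on day 4 (plates 1, 2 and 5). On day 9 it stood at 58.0, 77.9 and 56.3 TPM (plate 2, plate 6 and the library with no plate number), on day 11 at 36.1, 21.2 and 59.4 TPM (plates 2, 5 and 6), and on day 20 at 13.3, 18.3 and 35.7 TPM (plate 2, 2_3 and plate 6). Every day 9 library was thus above every day 4 library, whereas days 9 and 11 overlapped, as did days 11 and 20. LEF1 rose from day 4 to day 9 by 6.20 on the log2 scale (standard error 0.23, edgeR adjusted p = 1.06e-06). The later log2 fold changes, −0.76 from day 9 to day 11 (standard error 0.35, edgeR adjusted p = 0.339) and −0.90 from day 11 to day 20 (standard error 0.52, edgeR adjusted p = 0.441; −0.66 and 0.587 without 2_3), did not pass. In the fit of all libraries LEF1 was still higher on day 20 than on day 4 (log2 difference 4.50, edgeR adjusted p = 1.86e-05; 4.74 and 1.69e-05 without 2_3), and between days 9 and 20 the log2 difference was −1.66 (edgeR adjusted p = 0.0186), a call lost without 2_3 (−1.41, adjusted p = 0.0549).

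TCF7 lay in a narrow band. It stood at 4.49, 3.66 and 3.51 TPM on day 0, at 3.70, 5.20 and 4.11 TPM on day 4, at 5.05, 5.53 and 4.60 TPM on day 9, at 6.67, 6.20 and 7.09 TPM on day 11, and at 5.44, 7.45 and 3.57 TPM on day 20. The day 11 libraries were all above those of day 9, but the log2 fold change of 0.34 did not pass (standard error 0.16, edgeR adjusted p = 0.338). Days 4 and 9 overlapped (log2 fold change 0.24, standard error 0.17, edgeR adjusted p = 0.267). In the fit of all libraries TCF7 was higher on day 11 than on day 0 (log2 difference 0.65, standard error 0.21, edgeR adjusted p = 0.0260), where 34.2% of all genes passed.

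SP5, a zinc finger factor of the Sp family that is a direct target of the pathway, had 6, 0 and 1 counts on day 0 and 14, 9 and 9 counts on day 4. On day 9 it stood at 55.1, 41.9 and 55.1 TPM, on day 11 at 27.2, 45.7 and 21.1 TPM, and on day 20 at 0.625, 11.0 and 3.27 TPM. Days 9 and 11 overlapped and each day 20 library was below every day 11 library, with 2_3 the highest of day 20. SP5 rose by 6.07 on the log2 scale from day 4 to day 9 (standard error 0.25, edgeR adjusted p = 1.59e-06). The log2 fold change from day 11 to day 20 was −2.94 (standard error 0.79) and did not pass in the fit of these 6 libraries (edgeR adjusted p = 0.110; −4.01 and 0.0571 without 2_3). It passed in the fit of all 15 libraries, which estimates the spread from every day (−3.01, edgeR adjusted p = 0.00896; −4.04 and 0.00168 without 2_3). Between days 20 and 4 the log2 difference was 2.26 (edgeR adjusted p = 0.0191) and 1.22 without 2_3 (edgeR adjusted p = 0.157). That call was also lost without any 1 of the day 4 libraries (adjusted p = 0.0550 to 0.0610) and with limma (adjusted p = 0.0522).

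AXIN2, the inducible partner of AXIN1 in the destruction complex, took the opposite course to LEF1 and SP5 between days 4 and 9. It stood at 41.8, 32.5 and 26.7 TPM on day 0, at 30.4, 30.2 and 31.1 TPM on day 4, at 10.7, 16.1 and 11.5 TPM on day 9, at 15.3, 14.3 and 13.1 TPM on day 11, and at 7.27, 14.2 and 16.5 TPM on day 20. The day 4 libraries lay within 1 TPM of each other, and every library from day 9 on was below every library of days 0 and 4. AXIN2 fell by 1.26 on the log2 scale from day 4 to day 9 (standard error 0.14, edgeR adjusted p = 0.000154), and this call was kept under all 13 alternatives run. Neither later comparison passed (log2 fold changes 0.11 and −0.30, edgeR adjusted p = 0.792 and 0.720; the second −0.24 and 0.768 without 2_3), and between days 4 and 0 the log2 fold change was −0.19 (edgeR adjusted p = 0.885).

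NKD1 stood at 4.35, 3.38 and 3.27 TPM on day 0, at 3.16, 3.60 and 5.25 TPM on day 4, at 7.93, 5.30 and 7.69 TPM on day 9, at 4.89, 3.26 and 2.90 TPM on day 11, and at 5.08, 5.46 and 6.45 TPM on day 20. The plate 6 library of day 9 and the plate 5 library of day 4 were nearly level, and in CPM (counts scaled to library size, the scale of the tests) days 4 and 9 overlapped. All day 11 libraries lay below those of day 9. NKD1 rose from day 4 to day 9 by 0.84 on the log2 scale (standard error 0.26, edgeR adjusted p = 0.0264), a call lost under 5 of 13 alternatives (adjusted p = 0.0610 to 0.101), among them the fits without the day 4 library of plate 1, that of plate 2 or the day 9 library of plate 2. From day 9 to day 11 the log2 fold change was −0.99 (standard error 0.29, edgeR adjusted p = 0.130), which DESeq2 called (adjusted p = 0.0272).

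NOTUM, the secreted Wnt deacylase, was low throughout, with 19 to 133 counts per library. It stood at 2.63, 0.757 and 2.31 TPM on day 0, at 1.96, 3.67 and 2.36 TPM on day 4, at 4.49, 5.52 and 3.99 TPM on day 9, at 4.86, 6.06 and 6.98 TPM on day 11, and at 7.09, 10.1 and 7.14 TPM on day 20. The mean was higher on each later day. All day 9 libraries were above those of day 4, and all day 20 libraries were above those of day 11 in TPM but not in CPM. NOTUM rose from day 4 to day 9 by 0.83 on the log2 scale (standard error 0.27, edgeR adjusted p = 0.0346). That call was lost under 5 of 13 alternatives (adjusted p = 0.0670 to 0.173), which were the fit of all libraries and those without the day 4 library of plate 1 or 5 or the day 9 library of plate 2 or 6. Over the longer interval, NOTUM was higher on day 20 than on day 0 (log2 difference 1.79, standard error 0.41, edgeR adjusted p = 0.00274; 1.81 and 0.00338 without 2_3).

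LGR5 is the R-spondin receptor known as a stem cell marker of the gut. It had 1, 15 and 2 counts on day 0 and 4, 5 and 4 counts on day 4, and then stood at 45.1, 60.9 and 39.6 TPM on day 9 (1170, 1748 and 1535 counts). On day 11 it stood at 9.84, 1.39 and 15.2 TPM and on day 20 at 0.184, 2.82 and 0.984 TPM. Every day 11 library was below every day 9 library, and the plate 5 library of day 11, at 1.39 TPM, was within the range of day 20 only through 2_3, the other 2 being below it. LGR5 rose by 8.60 on the log2 scale from day 4 to day 9 (standard error 0.24, edgeR adjusted p = 4.71e-07). From day 9 to day 11 the log2 fold change was −2.49 (standard error 0.70) and did not pass (edgeR adjusted p = 0.130), but it passed with DESeq2 (−2.49, adjusted p = 0.002), with the plate as a block (−2.13, edgeR adjusted p = 7.1e-06) and without the plate 5 library of day 11 (−1.98, edgeR adjusted p = 0.0219). The plate block rests on the libraries of plates 2 and 6 alone. It too sets the plate 5 library of day 11 aside, so these last settings are not independent of each other. From day 11 to day 20 it was −3.03 (standard error 1.01, edgeR adjusted p = 0.185; −3.95 and 0.153 without 2_3), and in the fit of all libraries −3.10 (edgeR adjusted p = 0.0211; −4.00 and 0.0172 without 2_3). That last call was lost without the day 11 library of plate 2 (adjusted p = 0.0539) or of plate 6 (adjusted p = 0.0758) and with limma (adjusted p = 0.0514). Between days 9 and 20 the log2 difference was −5.57 (standard error 0.87, edgeR adjusted p = 0.000525; −6.46 and 0.000899 without 2_3).

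RNF43 and ZNRF3 are close relatives with the same target. RNF43 stood at 3.15, 1.04 and 2.61 TPM on day 0, at 4.10, 3.13 and 4.84 TPM on day 4, at 7.74, 12.0 and 9.84 TPM on day 9, at 9.90, 10.2 and 11.8 TPM on day 11, and at 11.4, 9.82 and 9.07 TPM on day 20. Every library from day 9 on was above every library of days 0 and 4. It rose by 1.30 on the log2 scale from day 4 to day 9 (standard error 0.20, edgeR adjusted p = 0.000912), a call kept under all 13 alternatives, and neither later comparison passed (log2 fold changes 0.07 and −0.19, standard errors 0.18 and 0.27; the second −0.044 without 2_3).

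ZNRF3 stood between 0.550 TPM, in the plate 6 library of day 11, and 1.38 TPM, in the day 9 library with no plate number, with only 19 to 71 counts per library. Its day means ran from 1.04 TPM on day 4 to 0.699 TPM on day 20, and all neighboring days overlapped. No comparison of consecutive days passed, and the log2 fold change from day 4 to day 9 was −0.02 (standard error 0.30, edgeR adjusted p = 0.962). With so few counts its standard errors were 0.30 to 0.49 in the 4 comparisons of consecutive days, and changes of that size were not detectable.

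FZD7, a Frizzled receptor highly expressed in human pluripotent stem cells, had the highest TPM of the 10 in every library of days 0 to 11 and in the plate 2 and plate 6 libraries of day 20, while in 2_3 LEF1 was slightly higher. It stood at 780, 832 and 592 TPM on day 0, at 922, 757 and 707 TPM on day 4, at 387, 346 and 611 TPM on day 9, at 438, 501 and 233 TPM on day 11, and at 42.5, 17.6 and 149 TPM on day 20. Every day 9 library was below every day 4 library, days 9 and 11 overlapped, and every day 20 library was below every day 11 library, with a wide spread within day 20. FZD7 fell by 0.80 on the log2 scale from day 4 to day 9 (standard error 0.25, edgeR adjusted p = 0.0274). That call was lost under 6 of 13 alternatives (adjusted p = 0.0572 to 0.319), namely without a filter, in the fit of all libraries, and without the day 4 library of plate 1 or 2 or the day 9 library of plate 2 or 6. From day 11 to day 20 the log2 fold change was −2.49 (standard error 0.80) and did not pass (edgeR adjusted p = 0.168; −2.00 and 0.146 without 2_3). Without the day 20 library of plate 6 it was −3.83 and passed (edgeR adjusted p = 0.0434). In the fit of all libraries it was −2.50 (edgeR adjusted p = 0.0185; −2.01 and 0.0134 without 2_3), a call lost without the day 11 library of plate 2 (adjusted p = 0.0626), and against day 0 the log2 difference on day 20 was −3.55 (standard error 0.65, edgeR adjusted p = 0.000595, where 43.5% of all genes passed; −3.05 and 0.000249 without 2_3).

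**Figure D2:**
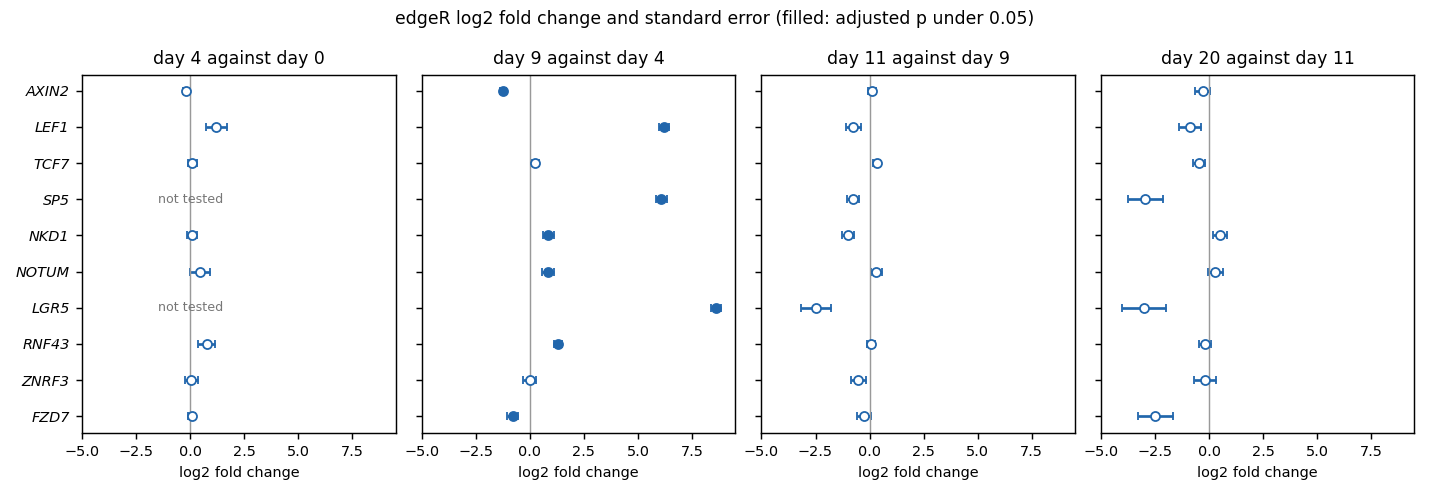
Log2 fold change of each gene (horizontal axis, later day over earlier day) with its standard error as a bar in the 4 comparisons of consecutive days, filled where the edgeR adjusted p-value was under 0.05. Filled points occur only from day 4 to day 9, from −1.26 for AXIN2 to 8.60 for LGR5, and SP5 and LGR5 had too few counts to be tested between days 0 and 4.

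The comparison of day 4 with day 0 sets the starting cells against cells labeled day 4. Whether the matrix, the medium and CHIR99021 also differ between them is not settled, as given above. None of the 8 genes with enough counts passed with edgeR, and neither did any of the 20964 genes tested (0%). At an unadjusted p-value under 0.05, 1 of the 8 (LEF1, log2 fold change 1.19, standard error 0.49, edgeR unadjusted p = 0.0352, adjusted p = 0.885) and 3.53% of all genes did. DESeq2 and the other alternatives also called 0 of the 10. In CPM the libraries of the 2 days did not overlap for AXIN2 (lower on day 4, though not in TPM) and LEF1 (higher on day 4), where 9.99% of all genes did not overlap. Each comparison of consecutive days shares 3 libraries with the next.

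From day 4 to day 9, the interval that by the labeled days holds the CHIR99021 and IWP2 treatments of the treatment protocol, 6 of the 10 genes rose (LGR5, LEF1, SP5, RNF43, NKD1 and NOTUM) and 2 fell (AXIN2 and FZD7). Of all 21252 genes tested, 49.0% passed the same test, 24.3% higher and 24.7% lower on day 9, so a call as such was common. SP5 and LGR5 entered the test through their day 9 counts alone, and of the other 8 genes 4 rose, 2 fell and 2 did not pass. Their median log2 fold change was 0.53. Over the 20057 genes that likewise had enough counts on days 0 and 4 it was −0.040, and 47.7% of them passed, 21.6% higher and 26.1% lower on day 9. LEF1, SP5, LGR5 and RNF43, all higher on day 9, and AXIN2, lower on day 9, kept their calls under all 13 alternatives. In CPM the libraries of the 2 days did not overlap for 7 of the 10 genes, where 59.7% of all genes did not.

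Markers of cell types also changed over the same interval. The summed level of 7 pluripotent cell markers was 7209 to 8264 TPM on day 4 and 1924 to 2360 TPM on day 9, with 7 of 7 lower. Most of the day 9 sum was LIN28A, at 1546, 1951 and 1464 TPM. Of the markers tested, 5 of 7 cardiomyocyte, 6 of 7 hepatic and yolk sac endoderm, 4 of 6 mesenchymal and 4 of 5 epicardial markers were higher on day 9 (1, 4, 1 and 2 of them tested through their day 9 counts alone), with sums of 297 to 469, 404 to 1296, 778 to 2365 and 42.2 to 101 TPM. On day 4 those sums were 19.4 to 22.2, 5.23 to 12.0, 365 to 531 and 6.06 to 8.65 TPM. The other epicardial marker tested, UPK3B, was lower on day 9. Of 6 epithelial markers 3 were higher and 2 lower, and of 4 neural markers tested 0 were higher and 2 lower. Of 6 endothelial markers 3 were higher and 1 lower, with 2 of the 6 tested through their day 9 counts alone. No marker of these lists was at 0 in all 3 libraries of a day. In bulk RNA, fewer cells of a type and less RNA per cell cannot be told apart, and the part of these changes in cell types in the results for the 10 genes was not tested.

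From day 9 to day 11, by the labeled days those around the withdrawal of IWP2 in the treatment protocol, none of the 10 genes passed with edgeR, where 2.39% of 20679 genes did. At an unadjusted p-value under 0.05, 3 of the 10 (LGR5, NKD1 and SP5, all with lower values on day 11) and 17.0% of all genes passed, and DESeq2 called NKD1 and LGR5, with 8.08% of all genes. In CPM the libraries of the 2 days did not overlap for LGR5, NKD1 and TCF7, where 23.9% of all genes did not. Among the cardiomyocyte markers 6 of 7 rose, to a summed level of 3638 to 15314 TPM. Without the day 9 library of plate 2, 0 of all genes passed, so these marker calls were lost too. The plate 5 library of day 11 had the highest cardiomyocyte sum and the lowest mesenchymal (1247 TPM), endoderm (765 TPM) and epicardial (23.1 TPM) sums of its day. It also had the lowest LGR5 and LEF1 and the highest SP5 and FZD7 of its day, and the part of the cell makeup in these values was not tested.

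From day 11 to day 20 again none of the 10 passed with edgeR, with or without 2_3, where 1.55% of 21398 genes did (all libraries in). At an unadjusted p-value under 0.05, 3 of the 10 (SP5, FZD7 and LGR5, all with lower values on day 20) and 16.7% of all genes passed. DESeq2 called the same 3 (adjusted p = 0.00148, 0.0123 and 0.011), with 8.71% of all genes, and so did the fit of all libraries, with 12.6%. In CPM the libraries of the 2 days did not overlap for FZD7, SP5 and TCF7, each lower on day 20 (TCF7 overlapped in TPM), where 23.1% of all genes did not. The 3 libraries of day 20 differed widely in markers. The cardiomyocyte sum was 16200, 15443 and 3674 TPM in plate 2, 2_3 and plate 6, the hepatic and yolk sac endoderm sum was 17511, 721 and 20650 TPM, and the mesenchymal sum was 3203, 1212 and 24452 TPM. The plate 6 library, with the lowest cardiomyocyte and highest mesenchymal sum, had the highest LEF1 and FZD7 of the day, and the part of cell makeup was not tested.

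For library 2_3 the counts of each gene were set beside those that the silent genes would give over its length. LGR5 had 58 counts where that level gives 57.8, and ZNRF3 had 21 where it gives 76.7. For NKD1 the level came to 51.4% of the counts, for TCF7 to 37.7%, and for the other 6 genes to between 15.3% (LEF1) and 28.6% (RNF43). SP5 had 89 counts against a level of 22.7. The LGR5 value of this library was thus at the level of silent genes, while SP5, FZD7 and LEF1 were above it. In the plate 6 library of day 20 the level was at most 4.66% of the counts except for LGR5 (15.5% of 23 counts) and ZNRF3 (24.9% of 19 counts).

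**Figure D3:**
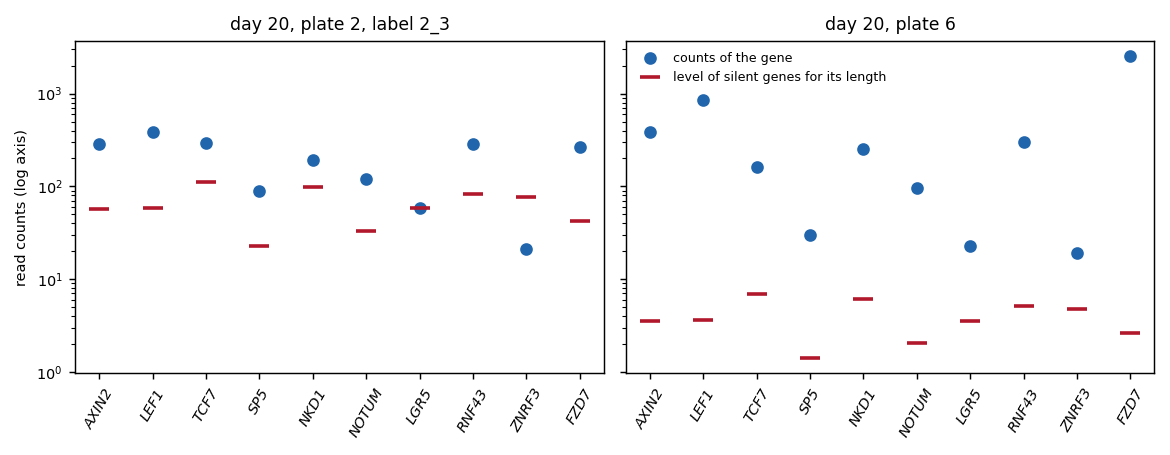
Read counts of each of the 10 genes (points, log axis) in the day 20 libraries 2_3 and plate 6, with a red bar at the counts that genes silent over days 0 to 11 would give over the same length. In 2_3 LGR5 lies on its bar and ZNRF3 below it, and in plate 6 every gene lies above its bar.

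Ordered by mean TPM, 7 of the 40 pairs of days next to each other in a gene's order differed in the fit of all libraries. AXIN2 stepped down below days 0 and 4 (33.7 ± 7.61 and 30.6 ± 0.493 TPM, SD, n = 3) to day 11 (14.2 ± 1.14 TPM, SD, n = 3; log2 difference 1.18, edgeR adjusted p = 0.00229), with no step past the threshold among days 11, 9 and 20, although that between days 9 and 20 passed without the plate 6 library of day 20 (−0.64, adjusted p = 0.0376). LEF1 stood in the order day 9 (64.1 ± 12.0 TPM, SD, n = 3), 11, 20, 4 and 0, and the step between days 20 and 4 passed. That between days 11 and 20 passed without the plate 6 library of day 20 (−1.63, adjusted p = 0.0225). SP5 and LGR5 shared the order of days 9, 11 and 20, and for both the step from day 11 to day 20 passed. Below it, the step of SP5 to day 4 passed but was lost under the 5 settings given above. That of LGR5 from day 20 to day 0 (log2 difference 2.47) did not pass (edgeR adjusted p = 0.0507), while 7 other settings that kept 2_3 called it (adjusted p = 0.00937 to 0.0424), and without 2_3 it was 1.56 (adjusted p = 0.280). That of LGR5 from day 9 to day 11 passed with DESeq2 (adjusted p = 0.0291) and limma (adjusted p = 0.0217). For RNF43 no step passed among days 11, 20 and 9, and day 4 stood below day 9 (log2 difference 1.25, edgeR adjusted p = 0.0141), a call lost without the day 4 library of plate 2 (adjusted p = 0.0788) or the day 9 library of plate 6 (adjusted p = 0.0571). For FZD7 the step from day 11 (391 ± 140 TPM, SD, n = 3) to day 20 (69.7 ± 69.7 TPM, SD, n = 3) passed. No step passed for TCF7, NKD1, NOTUM or ZNRF3. The share of all genes that passed was 22.6% between days 9 and 20, 12.6% between days 11 and 20, 25.1% between days 9 and 4, 32.8% between days 11 and 4 and 41.4% between days 20 and 4.

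FZD7 was set beside the other 9 Frizzled genes, which bind Wnt ligands in the same way. Its share of the summed Frizzled TPM was 64.6% ± 6.75 (SD, n = 3) on day 0, 59.8% ± 2.85 on day 4, 44.8% ± 3.93 on day 9, 39.9% ± 9.43 on day 11 and 12.5% ± 10.2 on day 20. The day 9 libraries (40.3% to 47.6%) were all below those of day 4 (56.6% to 61.9%), and the day 20 libraries (9.80% in plate 2, 3.91% in 2_3 and 23.8% in plate 6) were all below those of day 11. FZD2, FZD4, FZD1 and FZD10 rose from day 4 to day 9 and FZD5 and FZD3 fell. FZD2 rose by 2.98 (standard error 0.32, edgeR adjusted p = 0.000253), from 24.5 ± 4.14 to 190 ± 82.0 TPM (SD, n = 3), and FZD5 fell by 2.13 (standard error 0.40, edgeR adjusted p = 0.00351), from 300 ± 64.6 to 66.5 ± 34.7 TPM (SD, n = 3). FZD4 rose by 2.70 (standard error 0.25, edgeR adjusted p = 9.86e-05) and was the only Frizzled gene past the threshold from day 11 to day 20, where it fell by 1.81 (standard error 0.29, edgeR adjusted p = 0.0309; 1.67 without 2_3). That call was lost without any other 1 of these 6 libraries (adjusted p = 0.0527 to 0.170). On day 20 FZD6, at 107 ± 38.0 TPM, FZD2, at 101 ± 54.1 TPM, and FZD8, at 78.0 ± 22.9 TPM (SD, n = 3), had higher means than FZD7, within ranges that overlapped its own. In plate 2 and 2_3 each of them was above FZD7. In plate 6, FZD7 (149 TPM) was above FZD6 (98.8 TPM) and FZD8 (100 TPM) and below FZD2 (157 TPM). Without 2_3, only FZD2 of these genes keeps a higher mean than FZD7.

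**Figure D4:**
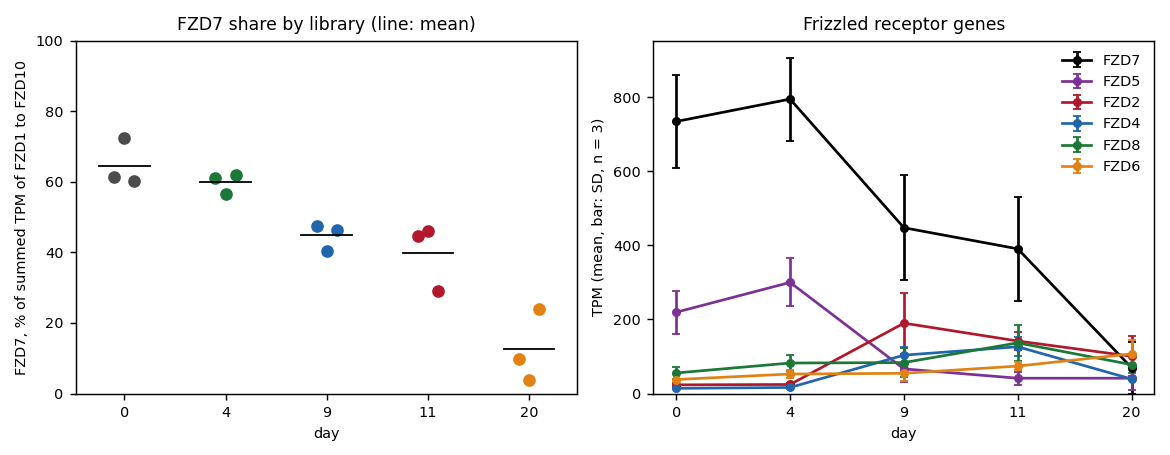
Left, FZD7 as a percent of the summed TPM of the 10 Frizzled genes by day, with 1 point per library and a bar at the mean; right, mean TPM of FZD7 and 5 other Frizzled genes by day with SD (n = 3). The FZD7 share runs from a mean of 64.6% on day 0 to 12.5% on day 20.

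The 59 other genes of the pathway lists gave the surroundings of the 10. From day 4 to day 9, 57 could be tested, of which 27 rose, 8 fell and 22 did not pass, where 24.3% of all genes were higher and 24.7% lower. RSPO3, MSX1, EVX1 and CDX2, all among the risen, entered through their day 9 counts alone. Of the other 53, 23 rose and 8 fell, with a median log2 fold change of 0.30, against −0.040 over all genes with enough counts on days 0 and 4. Among R-spondins and their other receptors, 4 of 6 rose and 1 fell. RSPO3, a ligand of LGR5, rose by 6.56 (standard error 0.39, edgeR adjusted p = 7.97e-06) and LGR4 by 0.92 (standard error 0.19, edgeR adjusted p = 0.00447), while LGR6 fell by 2.96 (standard error 0.33, edgeR adjusted p = 0.000179). LGR4 was the most abundant of the 3 receptors, at 725 ± 188 TPM (SD, n = 3) on day 9 against 48.5 ± 11.1 TPM for LGR5. Of the genes of Wnt secretion, WLS, the carrier of Wnt ligands to the cell surface, rose by 7.18 (standard error 0.40, edgeR adjusted p = 1.19e-05), and PORCN, the target of IWP2, fell by 1.16 (standard error 0.20, edgeR adjusted p = 0.00167).

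Of the 11 genes of the destruction complex and Dishevelled, 5 rose, 1 fell and 5 did not pass. Beside this list and those that follow, 24.3% of all genes tested were higher on day 9 and 24.7% lower, so calls in them were common. DVL3, a Dishevelled protein, rose by 1.10 (standard error 0.12, edgeR adjusted p = 0.000170) and APC fell by 0.66 (standard error 0.13, edgeR adjusted p = 0.00341). AXIN1, the constitutive relative of AXIN2, had a log2 fold change of 0.05 (standard error 0.12), and CTNNB1, which encodes beta-catenin, one of 0.16 (standard error 0.15). Of 11 other TCF factors, coactivators and corepressors 4 rose and 1 fell, among them the coactivators PYGO1 (log2 fold change 4.00, standard error 0.30, edgeR adjusted p = 3.61e-05) and BCL9 (0.88, standard error 0.12, edgeR adjusted p = 0.000465) and the corepressor TLE1 (−1.39, standard error 0.13, edgeR adjusted p = 6.14e-05). TCF7L1 and TCF7L2, the other TCF factors, did not pass. Of the 6 co-receptors and other receptors ROR2 rose by 1.97 (standard error 0.29) and LRP6 fell by 0.71 (standard error 0.24).

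Of 14 further target genes 12 could be tested, of which 8 rose and 1 fell, where 24.3% of all genes were higher and 24.7% lower. MSX1, EVX1 and CDX2 entered through their day 9 counts alone. Of the other 9 genes 5 rose, 1 fell and 3 did not pass. Over all genes with enough counts on days 0 and 4, 21.6% were higher and 26.1% lower. MSX1 rose by 7.46 (standard error 0.38, edgeR adjusted p = 5.84e-06), MSX2 by 5.88 (standard error 0.42, edgeR adjusted p = 3.51e-05) and BMP4 by 5.11 (standard error 0.31, edgeR adjusted p = 1.55e-05), all known in mesoderm. NKD2, the relative of NKD1, fell by 1.00 (standard error 0.21, edgeR adjusted p = 0.00404). EVX1 was listed at 0 in all 3 libraries of day 4 and at 1.80 to 2.60 TPM on day 9, and CDX2 stood at 0 to 0.0407 TPM on day 4 and 0.492 to 6.44 TPM on day 9, so no fold is given for either. TBXT, a mesoderm factor and target of the pathway, had too few counts to be tested. From day 9 to day 11, RSPO3 rose by 1.53 (standard error 0.28, edgeR adjusted p = 0.0385), MSX2 fell by 1.50 (standard error 0.27, edgeR adjusted p = 0.0383) and the other 55 did not pass. Of all genes 2.39% passed there. Both calls were lost without the day 9 library of plate 2, where 0 of all genes passed. From day 11 to day 20 FZD4 alone passed, where 1.55% of all genes did. Between days 0 and 4 0 of 53 passed with edgeR, as did 0 of all genes.

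**Figure D5:**
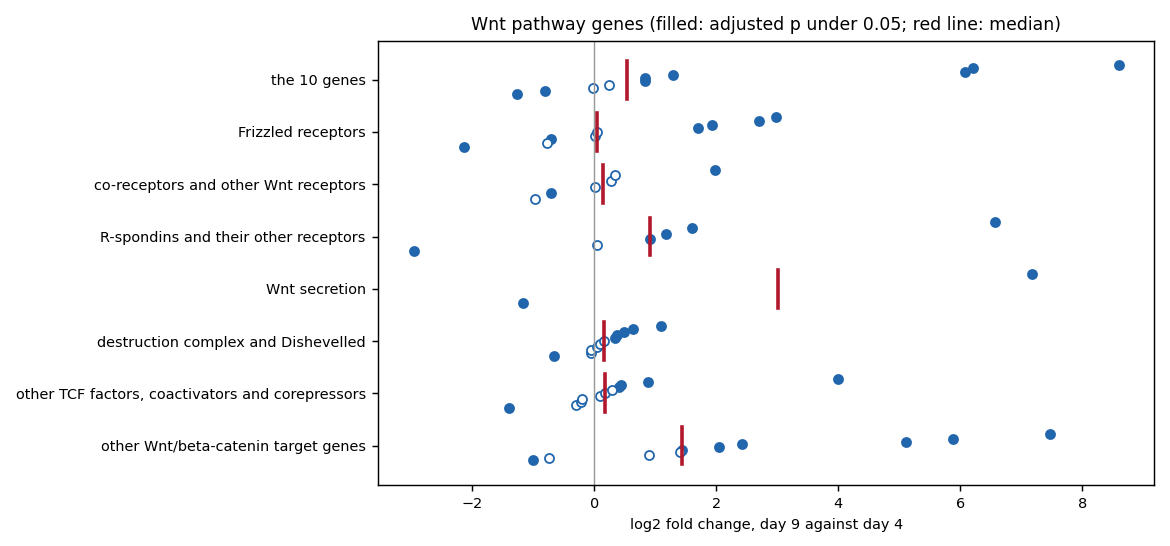
Log2 fold change from day 4 to day 9 (horizontal axis) for the 10 genes and 7 lists of other pathway genes, with 1 point per gene, filled where the edgeR adjusted p-value was under 0.05, and a red line at the median of the genes of each list that had enough counts on days 0 and 4. EVX1 and CDX2, at or near 0 on day 4, are not drawn; the 10 genes range from −1.26 to 8.60, and lists with a median near 0 hold members past the threshold in both directions.

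Among 14686 protein-coding genes with a mean of at least 1 CPM, the 3 closest in course to each of the 10 were taken by Pearson's r of log2 CPM over the 15 libraries, which share 5 days. For LEF1 they were LIX1 (r = 0.985), MCC (0.984) and MSX1 (0.983), and for LGR5 HOXB1 (0.962), DIO2 (0.953) and RASSF10 (0.949). MSX1 is itself in the list of further targets. For AXIN2 they were MMP16 (0.977), UCHL1 (0.969) and ZNF429 (0.965), and for FZD7 the histone genes H4C6 (0.976) and H1-3 (0.974) and the actin cross-linker FLNA (0.972). For RNF43 they were ZNF516 (0.972), IFI27L2 (0.969) and PAAF1 (0.967), and for NOTUM PITX3 (0.942), SLC6A16 (0.935) and AHNAK (0.934). The r values were lower for the genes with narrow ranges, led by PIGO for ZNRF3 (0.920), THAP2 for NKD1 (0.890) and UBE3B for TCF7 (0.859). All are descriptions over libraries that differ in day and depth.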

How the data were processed

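Bulk RNA-seq of 15 H1 libraries (days 0, 4, 9, 11 and 20, 3 per day) was used. The authors aligned stranded, paired 150 base reads of total RNA to hg38 with STAR 2.5.2b and counted them with featureCounts 1.5.1, and they deposited raw read counts per gene after removing ribosomal and mitochondrial genes. The authors also deposited TPM, computed from these counts with gene lengths that no source states. The deposited sample table gives RNA integrity as a score, the fraction of uniquely mapped reads and the sequencing lane. Single-cell libraries were not analysed here. Totals of 11990302 to 33469703 counts set, with the spread between replicates, the standard errors.

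Consecutive days were tested by the robust quasi-likelihood method of edgeR 4.0.16 (R 4.3.3), after TMM scaling and filterByExpr (min.count 10, min.total.count 15), on the 6 libraries of both days. All 15 libraries entered the test of any difference and the order of days. Tests were two-sided, adjusted by Benjamini-Hochberg over all genes tested, at a threshold of 0.05, and the standard error is the log2 fold change over the square root of F. With 3 libraries per day an exact permutation test cannot go below p = 0.1. Means ± SD are of TPM.

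The named genes are the 10 members, the 59 genes of 7 pathway lists, the 53 of 8 marker lists and, for each member, the 3 protein-coding genes closest by Pearson's r. Members and lists were chosen with earlier results of these data known. Symbols and coordinates come from GENCODE v44 (46872 of 48777 identifiers matched) and promoters from RefSeq. Alternatives were DESeq2 1.42.0, upper-quartile scaling, library size alone, no filter, limma 3.58.1 on log2(TPM + 1), all libraries in 1 fit, lane or plate as a block, and each replicate left out. The tests were tried on simulated data with known changes. The counts and medians over genes with enough counts on days 0 and 4 were added after the data were seen. The genes closest in course to SP5 are not reported here.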

Additional observations from a re-analysis of the deposited data

How the results depend on the processing

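Of the single-gene values that keep every library, the direction was kept in all but 1, ZNRF3 from day 4 to day 9, which was 0.046 with library size alone. From day 0 to day 4, 64 genes passed with no filter, none of them among the 10. From day 4 to day 9, 5 of the 10 and 6209 genes passed in the fit of all 15 libraries, and 5 to 8 of the 10 with each replicate left out (5 without the day 4 library of plate 1 or the day 9 library of plate 2). From day 9 to day 11, DESeq2 called 2 of the 10 and 1671 genes and no filter gave 1 and 1016. With each replicate left out, 0 to 1 of the 10 and 0 to 573 genes passed, with 0 genes without the day 9 library of plate 2 and 37 without that with no plate number. From day 11 to day 20, DESeq2 called 3 of the 10 and 1864 genes, the fit of all libraries 3 and 3132, no filter 1 of the 10, and the lane block 137 genes. With each replicate left out, 0 to 1 of the 10 and 0 to 510 genes passed, the most without 2_3. The cause of these shifts was not tested.

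Left-out replicates turned the sign of fold changes that were near 0 and not past the threshold. From day 0 to day 4 the ranges were −0.058 to 0.18 for TCF7, −0.17 to 0.19 for NKD1, −0.16 to 0.21 for ZNRF3 and −0.079 to 0.15 for FZD7. From day 4 to day 9 ZNRF3 ranged from −0.34 to 0.15, and from day 9 to day 11 RNF43 ranged from −0.045 to 0.16 and FZD7 from −0.47 to 0.026. From day 11 to day 20 the median of all genes was 0.07 with TMM, 0.13 with library size alone, 0.18 with the upper quartile and 0.80 with no filter, and no member turned direction.

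With the plate as a replicate block, 4 of the 10 (LEF1, SP5, NKD1 and LGR5) and 1971 genes passed from day 9 to day 11, and 3 genes from day 11 to day 20. Over days 4 to 20, 4 of the 10 and 3787 genes then differed. That last fit left out the day 9 library with no plate number. A library alone on its plate adds nothing to a fold change in such a fit. From day 9 to day 11 the block thus rests on the libraries of plates 2 and 6, and its counts are not from the same libraries as the main fit. Plates, with the labels 2_3 and 6_1 read as plates 2 and 6, link at most 2 numbers per comparison. The deviations of libraries of the same plate correlated at 0.139 and 0.355 for days 9 and 11. For days 11 and 20 they correlated at −0.176 to 0.378. The pairs at 0.355 and −0.176 also shared their sequencing lane, so plate and lane cannot be told apart in them. The plates are therefore a hint of pairing only. The plate block could not be fitted for the earlier comparisons, which share fewer than 2 plates, nor the lane block for days 0 and 4. Depth limits ZNRF3, and SP5 and LGR5 on days 0 and 4.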
